A study of Mus musculus with 8 samples.

Results

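Iron handling, glutathione and redox defence were examined as a set of genes for iron uptake and sensing, heme and iron-sulfur clusters, glutathione synthesis and use, and the enzymes that remove peroxides. The members came from a list of 48 gene symbols, which were looked up in the symbol column of the deposited values. Of these, 35 were found, among 10982 symbols in all, and the other 13 were not analysed here. The rule itself uses no measured value, but the list was drawn up with earlier results of these data known.

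Cells bring in iron bound to transferrin through the transferrin receptor, and build it into heme and iron-sulfur clusters, while free iron turns hydrogen peroxide into damaging radicals. Catalase, the glutathione peroxidases and the peroxiredoxins remove peroxides. The peroxidases draw their electrons from glutathione or from thioredoxin, which are kept reduced by glutathione reductase and the thioredoxin reductases. Oligodendrocytes are known for a high iron content in the brain and for making transferrin, and their progenitors are known to be sensitive to oxidative stress and low in glutathione.

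The series compared oligodendrocyte progenitor cells (OPCs), the dividing glia that mature into myelin-forming cells, with oligodendrocytes made from them. OPCs of mouse strain 129S/SvEv were derived from epiblast stem cells and kept in bFGF and PDGFA, each at 20 ng/ml. Oligodendrocytes were differentiated from these OPCs with noggin and IGF-1 (100 ng/ml each), cyclic AMP (10 µM), NT3 (10 ng/ml) and T3 (thyroid hormone, 40 ng/ml). For 2 cultures of each cell type, collected after 3 days, the series holds ribosome footprints and RNA-seq of the same lysates, 8 libraries in 4 groups. All cultures are wild type and grown in vitro from stem cells, plates of a cell type were pooled, and the study states that part of the cells stay undifferentiated OPCs.

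The values are FPKM, fragments for each kilobase of transcript (RNA-seq) or of coding sequence (CDS, footprints) scaled to the mapped reads, so levels are per length and can be set beside each other within a kind of library. Depth, estimated from the steps between the lowest values, was 77.9 to 241 Mb (megabases) aligned in RNA-seq and 93.0 to 249 Mb in footprints, lowest in oligodendrocyte culture 2 for both kinds. The estimates may be off by a factor of 2, and that of oligodendrocyte culture 1 in RNA-seq by a factor of 3. The footprint library of that culture lists 31.1% of transcripts at 0, and 172 of them had at least 10 FPKM in the other 3 footprint libraries, so a member at 0 is described as listed at 0 and not as absent. Marker lists followed the labels in part. Of the oligodendrocyte markers, 11 of 11 tested were higher in oligodendrocytes in RNA-seq, with a summed level of 65.9 to 70.3 FPKM in OPCs and 3996 to 4397 FPKM in oligodendrocytes, and Mog, Mag and Myrf were listed at 0 in the OPC RNA-seq libraries. Of the OPC markers, 1 of 8 was lower and 4 were higher in oligodendrocytes, among them Pdgfra. Of 10 astrocyte markers tested, 3 were higher and 1 was lower, with summed levels of 502 to 559 FPKM in OPCs and 1089 to 1253 FPKM in oligodendrocytes. Most of the rise of the sum was S100b, at 20.6 and 12.6 FPKM in OPC cultures 1 and 2 and 675 and 633 FPKM in oligodendrocyte cultures 1 and 2. Slc1a3 went from 136 and 181 FPKM to 74.3 and 74.3 FPKM. Gfap stood at 0.155 and 0 FPKM in OPC cultures 1 and 2 and at 14.2 and 2.11 FPKM in oligodendrocyte cultures 1 and 2. The neuron markers summed to 120.0 to 135 and 191 to 208 FPKM, with 2 of 8 higher, and those of microglia, pluripotent cells, and fibroblasts and vessel cells to at most 0.678 FPKM in any RNA-seq library. The part of other cell types in the results was not tested.

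Oligodendrocytes held more RNA for catalase, glutathione peroxidase 4 and the heme enzyme Alad, and less for thioredoxin 1, peroxiredoxin 4, glutathione reductase and the glutathione synthesis subunit Gclm. Of 32 members tested in RNA-seq, 5 were higher in oligodendrocytes (15.6%, against 13.0% of all 8346 transcripts tested) and 8 were lower (25.0%, against 20.2%), by limma at an adjusted p under 0.05. Of 33 members tested in footprints, 4 were higher (12.1%, against 12.8% of 8342 transcripts) and 6 were lower (18.2%, against 10.8%). Of the 4, Trf was admitted to the test through the oligodendrocyte libraries alone, its OPC mean being below the minimum of 1 FPKM, so it had to differ and is given as a description, as is the case for 122 of the 1065 transcripts called higher in footprints. The shares of members in RNA-seq, and the higher share in footprints, lie near those of all transcripts, and nothing is read from the counts about the set as a whole. The median log2 fold change (oligodendrocytes over OPCs) of the members was -0.28 in RNA-seq, where the median of all transcripts was -0.23, and -0.19 in footprints, where that of all was -0.16. In bulk libraries, fewer cells of a type and less RNA in each cell cannot be told apart.

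**Figure D1:**
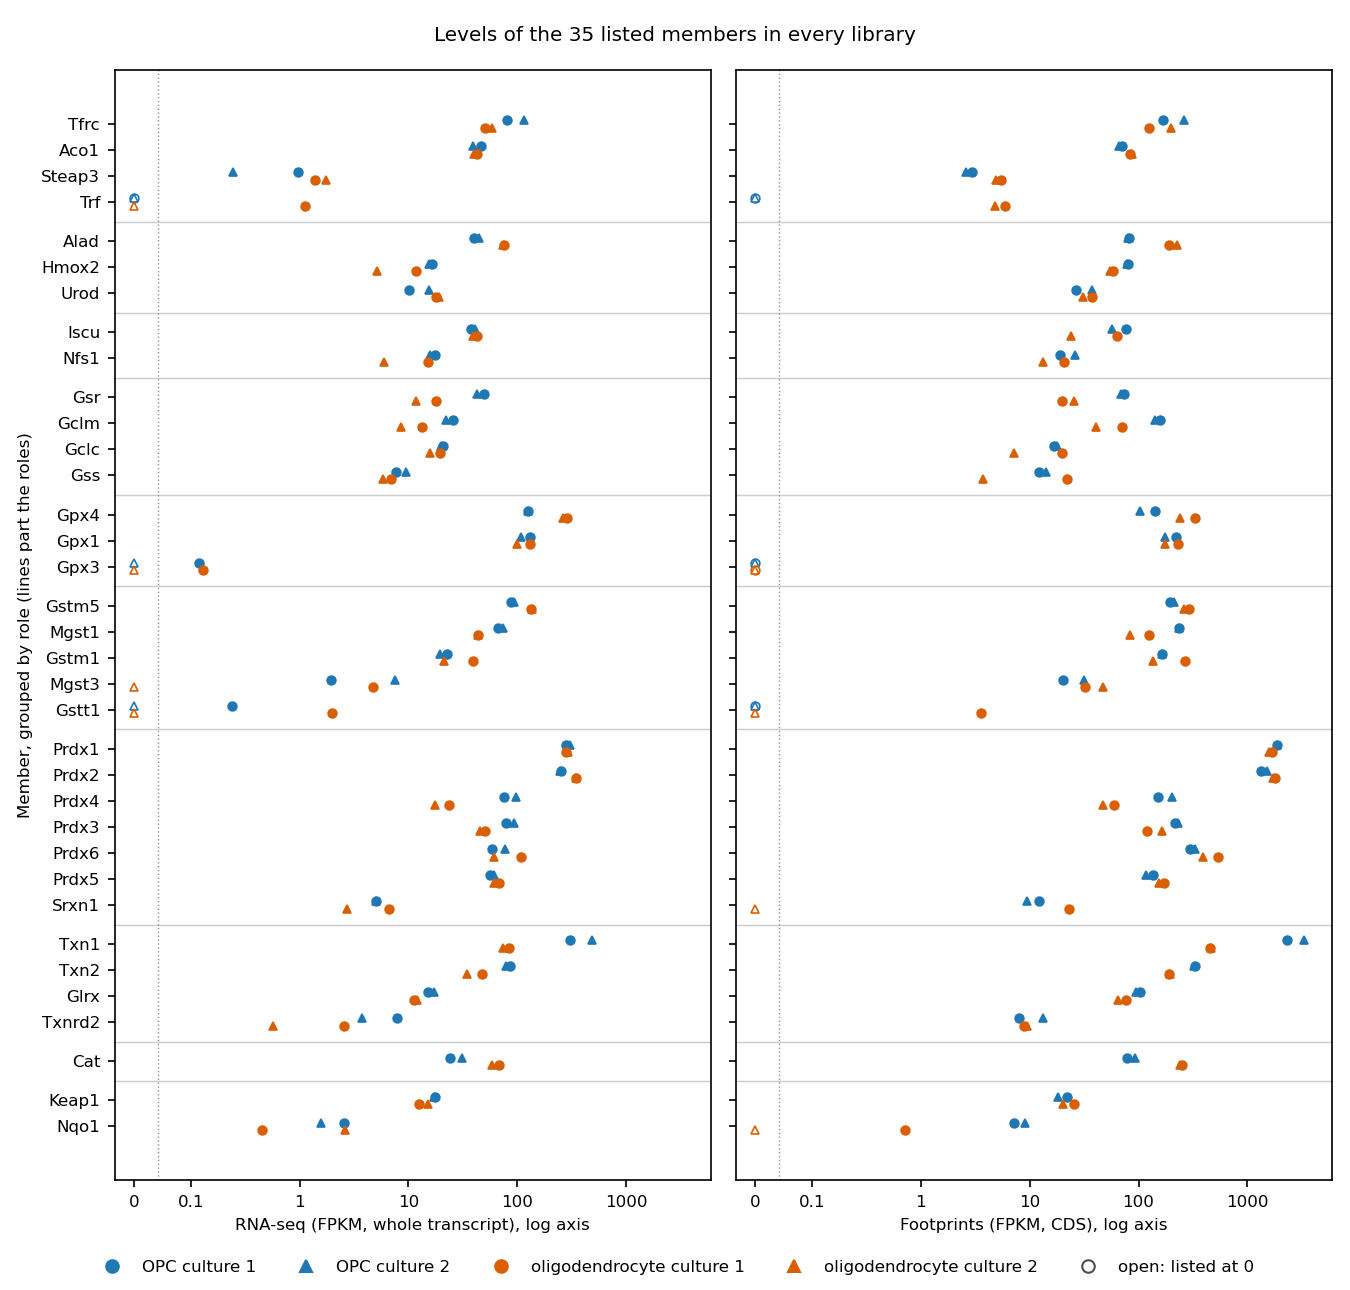
FPKM of the 35 members found, by role, in the 4 RNA-seq libraries (left, per kilobase of transcript) and the 4 footprint libraries (right, per kilobase of CDS), on log axes, with each point a culture and open symbols for libraries that list the member at 0. The OPC points of Txn1, Prdx4, Gsr and Gclm lie above those of oligodendrocytes in both panels, and those of Cat, Gpx4 and Alad below.

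The fold changes of all transcripts depend on how libraries are scaled. With median-ratio scaling, the median over all transcripts in RNA-seq was -0.05 and with TPM scaling it was -0.03, and the share of higher calls among all calls went from 39.1% to 51.5% and 53.4%. In footprints it was -0.14 and 0.14 under these scalings, and TPM scaling moved the share of higher calls from 54.1% to 71.7% of all calls and from 4 of 10 (40.0%) to 8 of 13 (61.5%) for the members. Every member called in RNA-seq or footprints kept its direction under both scalings. Among the RNA-seq calls, Mgst1 and Tfrc did not pass under either scaling, and Txn2 did not pass in footprints under TPM scaling.

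With 2 cultures in each group, the exact permutation test of a single gene cannot give a p below 0.333, and the calls rest on a spread that limma shares between transcripts. They therefore depend on having both cultures. Leaving out either OPC culture removed the footprint calls of all transcripts and most of their RNA-seq calls. A footprint call lost there is thus no trait of a member. Leaving out oligodendrocyte culture 1 raised the footprint calls over all transcripts, so gains there are not particular to the members either. Without OPC culture 1 the RNA-seq test called 2 members (Txn1 and Prdx4), without OPC culture 2 it called 1 (Txn1), without oligodendrocyte culture 1 it called 13, and without oligodendrocyte culture 2 it called 5. The 13 include Hmox2, Mgst3, Nfs1 and Txnrd2 in place of Gstm5, Mgst1, Prdx2 and Tfrc. In footprints the same fits called 0, 0, 14 and 4 members, with Gclc, Gss, Iscu, Nqo1 and Srxn1 gained and Gpx4 lost in the third, and Alad, Gsr, Trf and Gstt1 called in the fourth. Nothing is read from the calls of Nqo1 and Srxn1 in the third, or of Mgst3 in the RNA-seq fit of the same cultures, where the lone oligodendrocyte library lists them at 0, nor from those of Trf and Gstt1 in the fourth, where both OPC libraries list them at 0 and the lone oligodendrocyte library alone admits them to the test. The lone culture of the reduced group is assumed in these fits to vary like the other group. All 14 members called in either comparison kept the direction of their fold change in each of these fits. Where a member was called its groups do not overlap, so leaving out a culture could not have turned the direction.

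Among the genes for iron uptake, storage and sensing, the receptor was lower in oligodendrocytes in RNA-seq, and transferrin had footprints at low levels in oligodendrocytes and was listed at 0 in those of OPCs. Tfrc (chr16:32608920-32632794, GRCm38), the transferrin receptor, had 79.99 and 115 FPKM in OPC cultures 1 and 2 and 50.4 and 58.6 FPKM in oligodendrocyte cultures 1 and 2 in RNA-seq, and the groups did not overlap. Its log2 fold change was -0.82 ± 0.22 (SE, adjusted p = 0.0363), which is 1.77-fold lower, and -0.59 relative to the median of all transcripts. This call was lost without any 1 of the 4 cultures (adjusted p from 0.0617 to 0.164). Footprints on Tfrc gave 167 and 264 FPKM in OPCs and 124 and 201 in oligodendrocytes, cultures 1 and 2 in each, which overlap between the groups, and the change did not pass (-0.41 ± 0.35 (SE, adjusted p = 0.426)). In both kinds of library the OPC culture 2 was the higher of the OPC pair.

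The RNA of Tfrc is a textbook target of the iron regulatory proteins, one of which is the product of Aco1. These proteins bind iron-responsive elements, hairpins with a CAGUGN loop, after the stop codon. The Tfrc transcript was searched outside its CDS, on the transcribed strand, for C, 5 bases, CAGTG and a base other than G, and 5 bases that can pair with the first 5 (G-T pairs allowed). It held 4 matches of 17 bases, which were not checked against annotated elements. Iron is known to act on this member through elements of this kind. The matches are shown with the loop in capitals and coordinates in GRCm38 on the plus strand:
Tfrc element 1, chr16:32631225-32631241: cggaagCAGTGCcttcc
Tfrc element 2, chr16:32631604-32631620: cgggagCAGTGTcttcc
Tfrc element 3, chr16:32631669-32631685: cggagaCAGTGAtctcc
Tfrc element 4, chr16:32631716-32631732: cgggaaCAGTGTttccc
No other member held a match, and a match was found in 0.501% of the 10985 listed transcripts with a CDS (55 transcripts). A match is a description of the letters and shows no binding in these cells.

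Aco1 (chr4:40143081-40198338), the cytosolic aconitase that acts as iron regulatory protein 1 when iron is low, stood at 46.5 and 39.5 FPKM in OPCs and 42.95 and 39.7 in oligodendrocytes in RNA-seq. The log2 difference was -0.05 ± 0.17, and in footprints 0.32 ± 0.12, and neither passed. Steap3, an endosomal ferrireductase, was low, at 0.974 and 0.244 FPKM in OPCs and 1.40 and 1.76 in oligodendrocytes in RNA-seq and 2.94 and 2.62 FPKM in OPCs and 5.42 and 4.85 in oligodendrocytes in footprints. Both oligodendrocyte cultures lie above both OPC cultures in each kind, without passing (adjusted p = 0.218 and 0.293). In RNA-seq Steap3 enters the test through the oligodendrocyte libraries alone, its OPC mean of 0.609 FPKM being below the minimum of 1 FPKM. Nothing is therefore read from its order in RNA-seq.

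Trf (chr9:103208795-103230444), transferrin, the iron carrier of plasma that oligodendrocytes also make, was listed at 0 in the footprints of both OPC cultures and at 5.87 and 4.79 FPKM in those of oligodendrocyte cultures 1 and 2. By the depth estimate these are about 87.7 and 31.1 reads of 30 bases. Its mean passes the minimum of 1 FPKM through the oligodendrocyte libraries alone, so the call in footprints (adjusted p = 0.0296) follows in part from its admission to the test and nothing is read from it, and no fold is given against a group listed at 0. It did not pass with the cultures paired by number (adjusted p = 0.0824), nor without OPC culture 1 or OPC culture 2 (adjusted p = 0.157 and 0.154). In RNA-seq, oligodendrocyte culture 1 had 1.13 FPKM and the other 3 libraries are listed at 0, so Trf was below the minimum mean of 1 FPKM and was not tested. Its transcript shares 2108 bases on the same strand with the read-through gene Gm20425 in Gencode vM21, so reads there cannot be assigned to either with certainty.

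Heme synthesis was represented by Alad and Urod and heme breakdown by Hmox2. Alad (chr4:62509169-62519918), the enzyme that joins pairs of aminolevulinic acid into porphobilinogen, had 40.1 and 44.2 FPKM in OPC cultures 1 and 2 and 75.5 and 74.2 FPKM in oligodendrocyte cultures 1 and 2 in RNA-seq. Footprints on it came to 81.1 and 80.4 FPKM in OPCs and 192 and 225 in oligodendrocytes. Both measurements separate the cell types without overlap, with a rise of 1.78-fold in RNA (0.83 ± 0.15 (SE, adjusted p = 0.0119)) and 2.57-fold in footprints (1.36 ± 0.13 (SE, adjusted p = 0.00879)). The RNA-seq call of Alad held without oligodendrocyte culture 1 and was lost without any of the other 3 (adjusted p over the 4 fits 0.0440 to 0.0759), and the footprint call was lost without either OPC culture (0.0133 to 0.121). Urod, the decarboxylase further along the same pathway, stood at 10.1 and 15.6 FPKM in OPCs and 18.1 and 19.03 in oligodendrocytes in RNA-seq and did not pass (0.56 ± 0.27 (SE, adjusted p = 0.158)). Its footprints overlapped between the groups, at 26.4 to 37.4 FPKM over all 4 libraries.

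Hmox2, the constitutive heme oxygenase, had 16.4 and 15.4 FPKM in OPC cultures 1 and 2 and 11.8 and 5.10 FPKM in oligodendrocyte cultures 1 and 2 in RNA-seq, where oligodendrocyte culture 2 was the lowest. Its log2 difference of -1.02 ± 0.41 did not pass (adjusted p = 0.109) but did with the cultures paired by number (adjusted p = 0.0397), and the difference in footprints was -0.48 ± 0.12 (SE, adjusted p = 0.0639). The transcript overlaps Cdip1 on the opposite strand by 892 bases, and the counting is not stated to use strand. Of the iron-sulfur cluster genes neither passed. Iscu (chr5:113772748-113778288), the scaffold on which clusters are built, lay between 37.95 and 42.4 FPKM in the RNA-seq libraries, with a log2 difference of 0.05 ± 0.16. Footprints on it measured 76.3 and 56.8 FPKM in OPCs and 64.1 and 24.0 in oligodendrocytes (-0.75 ± 0.53 (SE, adjusted p = 0.359)), lowest in oligodendrocyte culture 2. Of the 30-base words of the Iscu transcript, 53.6% occur elsewhere in the genome, so its level is uncertain. Nfs1, the cysteine desulfurase that provides the sulfur, stood at 17.5 and 15.8 FPKM in OPCs and 14.99 and 5.96 in oligodendrocytes in RNA-seq (-0.81 ± 0.44 (SE, adjusted p = 0.206)) and at 18.9 and 25.8 FPKM in OPCs and 20.8 and 13.2 in oligodendrocytes in footprints.

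All 4 genes of glutathione synthesis and recycling were found, and 2 of them (50.0%) fell in RNA-seq and in footprints, against 8.95% of 8056 transcripts. With 4 genes, nothing is read from that share. Gclm (chr3:122245557-122270732), the modifier subunit of glutamate-cysteine ligase, which catalyses the rate-limiting step of the synthesis, had 25.5 and 21.95 FPKM in OPC cultures 1 and 2 and 13.2 and 8.58 FPKM in oligodendrocyte cultures 1 and 2 in RNA-seq. Footprints on Gclm reached 157 and 142 FPKM in OPCs and 70.9 and 40.9 in oligodendrocytes. Oligodendrocytes were lower in both without overlap, 2.21-fold in RNA (-1.14 ± 0.27 (SE, adjusted p = 0.0250)) and 2.77-fold in footprints (-1.47 ± 0.30 (SE, adjusted p = 0.0390)), and culture 2 was the lower of the oligodendrocyte pair in each. Gclc, the catalytic subunit of the same enzyme, did not follow it, with 20.8 and 20.0 FPKM in OPCs and 19.3 and 15.7 in oligodendrocytes in RNA-seq (-0.23 ± 0.20 (SE, adjusted p = 0.419)). In footprints Gclc was at 16.8 and 17.9 FPKM in OPCs and 19.7 and 7.14 in oligodendrocytes, and the low value of oligodendrocyte culture 2 gave an overlap of the groups (-0.54 ± 0.56 (SE, adjusted p = 0.509)). The difference between the changes of the subunits was not tested.

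Gsr (chr8:33653238-33698163), glutathione reductase, which returns oxidised glutathione to its reduced form, had 48.9 and 42.6 FPKM in OPC cultures 1 and 2 and 17.99 and 11.7 FPKM in oligodendrocyte cultures 1 and 2 in RNA-seq. Footprints on Gsr came to 73.8 and 69.3 FPKM in OPCs and 19.7 and 25.4 in oligodendrocytes. The gene fell 3.14-fold in RNA (-1.65 ± 0.25 (SE, adjusted p = 0.00683)) and 3.18-fold in footprints (-1.67 ± 0.19 (SE, adjusted p = 0.0122)), the third largest of the falls past the threshold in each kind. Gss, glutathione synthetase, was low, at 7.69 and 9.49 FPKM in OPCs and 6.94 and 5.84 in oligodendrocytes in RNA-seq (-0.42 ± 0.28 (SE, adjusted p = 0.284)), and its footprints ranged from 3.76 FPKM in oligodendrocyte culture 2 to 21.9 FPKM in oligodendrocyte culture 1. Without OPC culture 1 or OPC culture 2 the calls of Gclm and Gsr were lost in both kinds of library, and without oligodendrocyte culture 2 those of Gclm were (adjusted p over the 4 fits 0.0186 to 0.178 and 0.0124 to 0.249 for Gclm and 0.00920 to 0.0906 and 0.0162 to 0.141 for Gsr, in RNA-seq and footprints).

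The glutathione peroxidases reduce peroxides with glutathione, and Gpx4 is the member that acts on lipid peroxides in membranes and guards against ferroptosis, the iron-dependent form of cell death. Gpx4 (chr10:80053488-80056439) had 126 and 125 FPKM in OPC cultures 1 and 2 and 287 and 262 FPKM in oligodendrocyte cultures 1 and 2 in RNA-seq. Footprints on it reached 142 and 103 FPKM in OPCs and 329 and 239 in oligodendrocytes. In both kinds the 2 oligodendrocyte cultures lie above the OPC cultures, a rise of 2.18-fold in RNA (1.13 ± 0.14 (SE, adjusted p = 0.00397)) and of 2.32-fold in footprints (1.21 ± 0.25 (SE, adjusted p = 0.0388)). The footprint call was lost without any 1 culture (adjusted p 0.0824 to 0.226) and the RNA-seq call without either OPC culture (0.0254 to 0.0586). Elsewhere in the genome occur 62.2% of the 30-base words of its transcript and 63.2% of those of its CDS, the largest shares among the members, so part of its reads could belong to copies. Gpx1 (chr9:108339054-108340343), the main cytosolic enzyme, has no such words, and its RNA stood at 132 and 108 FPKM in OPCs and 130.5 and 98.7 in oligodendrocytes. Its log2 differences were near 0 in RNA-seq (-0.07 ± 0.20) and in footprints (0.03 ± 0.20), and culture 1 was the higher of the pair in both cell types. Gpx3, the secreted enzyme, is listed at 0 in all 4 footprint libraries and at no more than 0.130 FPKM in RNA-seq, under the 0.469 FPKM that 3 reads are worth in that library, and was not tested.

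These 3 enzymes and the mitochondrial thioredoxin reductase Txnrd2 are selenoproteins, in which a UGA codon that would otherwise stop translation is read as selenocysteine. An in-frame TGA before the stop codon was present in 20 of the 10972 listed transcripts with a whole CDS, and 4 of these are members. Their codons are shown because ribosomes have to pass them to complete the enzyme, with the TGA in capitals, in GRCm38 and on the plus strand:
Gpx1, codon 47 of 201, chr9:108339439-108339465: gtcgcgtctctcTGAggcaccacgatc
Gpx3, codon 73 of 226, chr11:54907244-54907270: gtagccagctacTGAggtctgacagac
Gpx4, codon 73 of 197, chr10:80054725-80054751: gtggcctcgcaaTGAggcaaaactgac
Txnrd2, codon 526 of 527, chr16:18477760-18477780: gtgactggttgcTGAggctaa
Each TGA is followed by GGC or GGT, and in Txnrd2 the codon is the last but the final glycine codon. The ribosome density (RD, footprint FPKM over RNA-seq FPKM) of Gpx4 was 1.12 and 0.822 in OPC cultures 1 and 2 and 1.14 and 0.911 in oligodendrocyte cultures 1 and 2, and that of Gpx1 lay between 1.62 and 1.79. Neither ratio differed beyond the spread between cultures, with log2 changes in RD of 0.09 ± 0.29 and 0.10 ± 0.31. FPKM cannot show where on the CDS the footprints lie.

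Of the glutathione S-transferases, which join glutathione to electrophiles, Gstm5 was higher and Mgst1 lower in oligodendrocytes. Mgst1 (chr6:138140316-138156755), a microsomal enzyme that also reduces lipid peroxides, had 66.2 and 73.99 FPKM in OPC cultures 1 and 2 and 43.3 and 43.9 FPKM in oligodendrocyte cultures 1 and 2 in RNA-seq. Footprints on Mgst1 reached 237 and 237 FPKM in OPCs and 124 and 84.3 in oligodendrocytes, a fall of 2.32-fold (-1.21 ± 0.22 (SE, adjusted p = 0.0286)) beside 1.60-fold in RNA (-0.68 ± 0.15 (SE, adjusted p = 0.0219)). The groups did not overlap in either. Relative to the median of all transcripts the RNA change was -0.45, and its call was lost without any 1 culture (adjusted p 0.0683 to 0.122), while the footprint call held without oligodendrocyte culture 1 and was lost without each of the others (0.0127 to 0.216).

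Gstm5 (chr3:107895821-107898686), a mu class enzyme of the brain, had 86.9 and 92.8 FPKM in OPC cultures 1 and 2 and 133 and 137 FPKM in oligodendrocyte cultures 1 and 2 in RNA-seq, higher in both oligodendrocyte cultures (1.51-fold, 0.59 ± 0.14 (SE, adjusted p = 0.0264)), a call that was lost without any 1 culture (adjusted p 0.0819 to 0.109). Its footprints, 196 and 211 FPKM in OPCs and 289 and 260.2 in oligodendrocytes, did not overlap either but did not pass (0.43 ± 0.12 (SE, adjusted p = 0.0706)). The Gstm5 transcript, of 945 bases, overlaps 4933431E20Rik on the opposite strand by 178 bases. Gstm1, another mu class enzyme, was higher in oligodendrocyte culture 1 than in the other 3, with 22.7 and 19.4 FPKM in OPCs and 38.9 and 21.1 in oligodendrocytes in RNA-seq and 163 and 163 FPKM in OPCs and 266 and 136 in oligodendrocytes in footprints, cultures 1 and 2 in each, and did not pass in either. Of the 30-base words of its CDS, 53.98% occur elsewhere in the genome. Gstt1, of the theta class, was listed at 0 in 5 of 8 libraries and had 1.996 FPKM in the RNA-seq and 3.59 FPKM in the footprints of oligodendrocyte culture 1, and was below the minimum in both tests. In RNA-seq 63.6% of 7669 transcripts were higher in oligodendrocyte culture 1 than in culture 2. The median log2 ratio of culture 1 over culture 2 was 0.135 over these transcripts. The summed markers of astrocytes (1253 and 1089 FPKM), of oligodendrocytes (4397 and 3996 FPKM) and, by little, of OPCs (1355 and 1331 FPKM) were also higher in culture 1. Those of neurons were lower there (191 and 208 FPKM). The part of other cell types in these values was not tested. Mgst3, a microsomal enzyme, gave 1.94 and 7.55 FPKM in OPCs and 4.68 and 0 in oligodendrocytes in RNA-seq, where the last is listed at 0, and 20.4 and 31.4 FPKM in OPCs and 32.1 and 47.6 in oligodendrocytes in footprints, and passed in neither.

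The peroxiredoxins were among the most abundant members, and they moved in different directions. All 7 genes of the list were tested. Prdx4 (chrX:155323918-155338467), the peroxiredoxin of the endoplasmic reticulum, had 75.8 and 97.7 FPKM in OPC cultures 1 and 2 and 23.4 and 17.7 FPKM in oligodendrocyte cultures 1 and 2 in RNA-seq. Footprints on Prdx4 came to 152 and 203 FPKM in OPCs and 60.1 and 47.2 in oligodendrocytes. It fell 4.21-fold in RNA (-2.07 ± 0.22 (SE, adjusted p = 0.00250)) and 3.30-fold in footprints (-1.72 ± 0.22 (SE, adjusted p = 0.0143)), with each OPC value at least 2 times each oligodendrocyte value. The RNA-seq call was lost without OPC culture 2 (adjusted p 0.0583) and held without each of the others, and the footprint call held without oligodendrocyte culture 1 alone (adjusted p over the 4 fits 0.0248 to 0.134). Prdx3 (chr19:60864051-60874556), the mitochondrial enzyme, had 78.02 and 93.9 FPKM in OPC cultures 1 and 2 and 50.4 and 45.2 FPKM in oligodendrocyte cultures 1 and 2 in RNA-seq, 1.79-fold lower in oligodendrocytes (-0.84 ± 0.17 (SE, adjusted p = 0.0159)). That call held without oligodendrocyte culture 1 and was lost without each of the other cultures (adjusted p 0.0417 to 0.112). Footprints on Prdx3 reached 214 and 229.9 FPKM in OPCs and 119.7 and 166 in oligodendrocytes, also without overlap, and did not pass (-0.66 ± 0.19 (SE, adjusted p = 0.0865)).

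Prdx2 (chr8:84969611-84974834), an abundant cytosolic enzyme, rose in RNA-seq, with 252 and 247 FPKM in OPC cultures 1 and 2 and 349.7 and 345 FPKM in oligodendrocyte cultures 1 and 2. The change was 1.39-fold (0.48 ± 0.14 (SE, adjusted p = 0.0474)), close to the threshold, and was lost without any 1 culture (adjusted p 0.130 to 0.185). Footprints on Prdx2 came to 1339 and 1502 FPKM in OPCs and 1801 and 1723 in oligodendrocytes (0.31 ± 0.13 (SE, adjusted p = 0.168)). In its CDS 34.2% of 30-base words occur elsewhere in the genome, and its transcript overlaps Junb and Rnaseh2a on the opposite strand by at most 173 bases. Prdx1, its close relative, was at a like level in both cell types, with 279.7 and 308 FPKM in OPCs and 280.2 and 293 in oligodendrocytes in RNA-seq (-0.03 ± 0.15) and 1857 and 1879 FPKM in OPCs and 1680.0 and 1596 in oligodendrocytes in footprints (-0.19 ± 0.12 (SE, adjusted p = 0.315)), and 60.6% of its CDS words occur elsewhere. Prdx5, found in several compartments, had log2 differences of 0.13 ± 0.16 in RNA-seq and 0.35 ± 0.14 in footprints, and neither passed.

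Prdx6, the peroxiredoxin that uses glutathione, was at 58.7 and 76.8 FPKM in OPCs and 109 and 61.5 in oligodendrocytes in RNA-seq and at 299 and 328 FPKM in OPCs and 543 and 393 in oligodendrocytes in footprints, cultures 1 and 2 in each. Oligodendrocyte culture 1 was the highest in both kinds, as for Gstm1, and the difference between the cell types passed in neither (adjusted p = 0.496 and 0.120). Srxn1, sulfiredoxin, which repairs overoxidised peroxiredoxins, was low, with 5.02 and 5.005 FPKM in OPCs and 6.65 and 2.72 in oligodendrocytes in RNA-seq, and its footprints were 12.1, 9.47 and 23.02 FPKM and listed at 0 in oligodendrocyte culture 2. The first oligodendrocyte culture thus had the highest and the second the lowest value in both kinds.

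Thioredoxin 1 had the largest change past the threshold in RNA-seq among the members. Txn1 (chr4:57943373-57956411), the small cytosolic protein that passes electrons to the peroxiredoxins, had 307 and 490.1 FPKM in OPC cultures 1 and 2 and 83.9 and 73.8 FPKM in oligodendrocyte cultures 1 and 2 in RNA-seq. Footprints on Txn1 reached 2326 and 3340.5 FPKM in OPCs and 458 and 461 in oligodendrocytes, the highest footprint level of any member in OPCs. It fell 4.92-fold in RNA (-2.30 ± 0.25 (SE, adjusted p = 0.00252)) and 6.06-fold in footprints (-2.60 ± 0.21 (SE, adjusted p = 0.00713)), and OPC culture 2 was the higher of its pair in both kinds. Its RNA-seq call held in each of the 4 fits that leave out a culture (log2 fold change -2.64 to -1.96), which no other member's RNA-seq call did. Its footprint call held without oligodendrocyte culture 1 alone, and without an OPC culture the footprint calls of all transcripts were lost. Of its CDS words 21.1% occur elsewhere in the genome.

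Txn2 (chr15:77915047-77929006), the mitochondrial thioredoxin, had 86.3 and 79.1 FPKM in OPC cultures 1 and 2 and 47.6 and 34.4 FPKM in oligodendrocyte cultures 1 and 2 in RNA-seq. Footprints on Txn2 came to 328 and 327 FPKM in OPCs and 191 and 196 in oligodendrocytes. It fell 2.04-fold in RNA (-1.03 ± 0.20 (SE, adjusted p = 0.0148)) and 1.69-fold in footprints (-0.76 ± 0.10 (SE, adjusted p = 0.0145)), with close replicates in footprints, and both calls held without oligodendrocyte culture 1 and were lost without each of the others (adjusted p 0.0168 to 0.116 and 0.0338 to 0.132). Txnrd2, the reductase that serves it, was low and scattered in RNA-seq, at 7.92 and 3.75 FPKM in OPCs and 2.56 and 0.566 in oligodendrocytes, and its log2 difference of -2.06 ± 0.77 did not pass unpaired (adjusted p = 0.0902) but did with the cultures paired by number (adjusted p = 0.0159). Its footprints, 7.94 and 13.4 FPKM in OPCs and 8.92 and 9.52 in oligodendrocytes, overlapped between the groups (-0.16 ± 0.40). Glrx, glutaredoxin, which removes glutathione from proteins, was lower in both oligodendrocyte cultures in RNA-seq (-0.47 ± 0.21) and in footprints (-0.49 ± 0.15) without passing in either, and 44.98% of its transcript words occur elsewhere.

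Catalase, the peroxisomal enzyme that splits hydrogen peroxide without glutathione or thioredoxin, had the largest rise past the threshold in RNA-seq among the members. Cat (chr2:103453849-103485160) had 23.9 and 31.3 FPKM in OPC cultures 1 and 2 and 67.8 and 57.98 FPKM in oligodendrocyte cultures 1 and 2 in RNA-seq. Footprints on Cat came to 78.5 and 91.97 FPKM in OPCs and 253 and 238 in oligodendrocytes. Both kinds separate the cell types, with a rise of 2.29-fold in RNA (1.19 ± 0.20 (SE, adjusted p = 0.00907)) and 2.89-fold in footprints (1.53 ± 0.13 (SE, adjusted p = 0.00751)). The RNA-seq call held without either oligodendrocyte culture and was lost without either OPC culture (adjusted p 0.0400 to 0.0708), and the footprint call held without oligodendrocyte culture 1 alone (0.0205 to 0.106). Of its transcript words 0.851%, and none of its CDS words, occur elsewhere in the genome.

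Neither gene of the NRF2 axis, the pathway that turns on antioxidant genes, passed. Keap1 (chr9:21229731-21239071), which holds NRF2 down, stood at 17.5 and 17.3 FPKM in OPCs and 12.6 and 15.04 in oligodendrocytes in RNA-seq (-0.34 ± 0.21 (SE, adjusted p = 0.257)) and at 21.8 and 18.2 FPKM in OPCs and 25.6 and 20.1 in oligodendrocytes in footprints. Nqo1, a quinone reductase and a well known target of NRF2, had footprints of 7.16 and 8.99 FPKM in OPCs, 0.720 FPKM in oligodendrocyte culture 1, and is listed at 0 in oligodendrocyte culture 2. It enters the footprint test through the OPC libraries alone, its oligodendrocyte mean of 0.360 FPKM being below the minimum. Nothing is therefore read from its adjusted p (0.0723, and 0.0230 to 0.162 over the 7 other settings that test it with all 4 cultures, of which the pseudocount of 1 passes). Its RNA, 2.55 and 1.57 FPKM in OPCs and 0.450 and 2.61 in oligodendrocytes, did not separate the groups, and the first oligodendrocyte value rests on an estimated 2.80 reads.

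Of the 13 members called in RNA-seq, 9 (69.2%) were called in footprints in the same direction, against 54.3% of the 2772 transcripts called in RNA-seq. These are 9 of the 10 footprint calls (90.0%, against 76.4% of the 1969 transcripts called in footprints), 3 of them higher and 6 lower in both. The difference of these shares from those of all transcripts was not tested. The libraries come from the same lysates, so the comparisons share their cultures. RD was tested as the difference between the footprint change and the RNA change over all 8 libraries. None of 32 members passed, against 0.0124% of 8056 transcripts (1 transcript), with adjusted p from 0.875 to 0.993. At an unadjusted p under 0.05, 1 member was found (3.12%, against 4.80% of all transcripts), Alad, with RD of 2.02 and 1.82 in OPCs and 2.54 and 3.03 in oligodendrocytes (log2 change 0.53 ± 0.18, SE). Without oligodendrocyte culture 1, RD called 3 members, Mgst3, Nqo1 and Srxn1, each with a library of oligodendrocyte culture 2 listed at 0, and nothing is read from these calls.

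**Figure D2:**
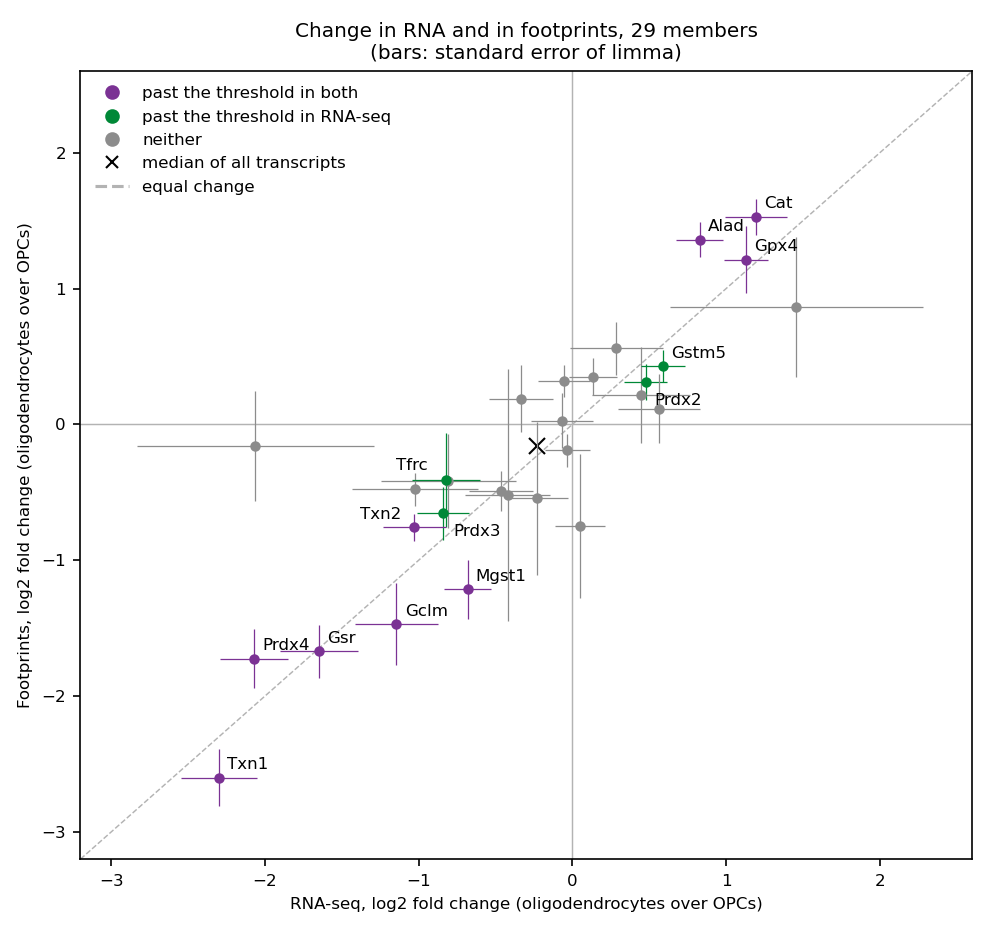
Log2 fold change (oligodendrocytes over OPCs) in RNA-seq and in footprints of 29 members tested in both, with bars for the SE of limma, 3 others being left out because a library lists them at 0. The members past the threshold in both lie near the line of equal change, from Txn1 at the lower left to Cat at the upper right, and the cross marks the median of all transcripts at -0.23 and -0.16.

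Over the 13 members called in RNA-seq, the log2 change in RD ran from -0.53 (Mgst1) to 0.53 (Alad), with SE of 0.16 to 0.46. Across these members RD in OPCs ran from 0.822 (Gpx4) to 7.58 (Txn1). Txn1 had 7.58 and 6.82 in OPCs and 5.46 and 6.24 in oligodendrocytes, and Gclm had 6.17 and 6.45 beside 5.37 and 4.77. In contrast, Gsr had 1.51 and 1.63 beside 1.10 and 2.18, where the oligodendrocyte cultures lie on either side of the OPCs. RNA-seq is scaled to the transcript and footprints to the CDS, so these ratios have no absolute meaning.

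**Figure D3:**
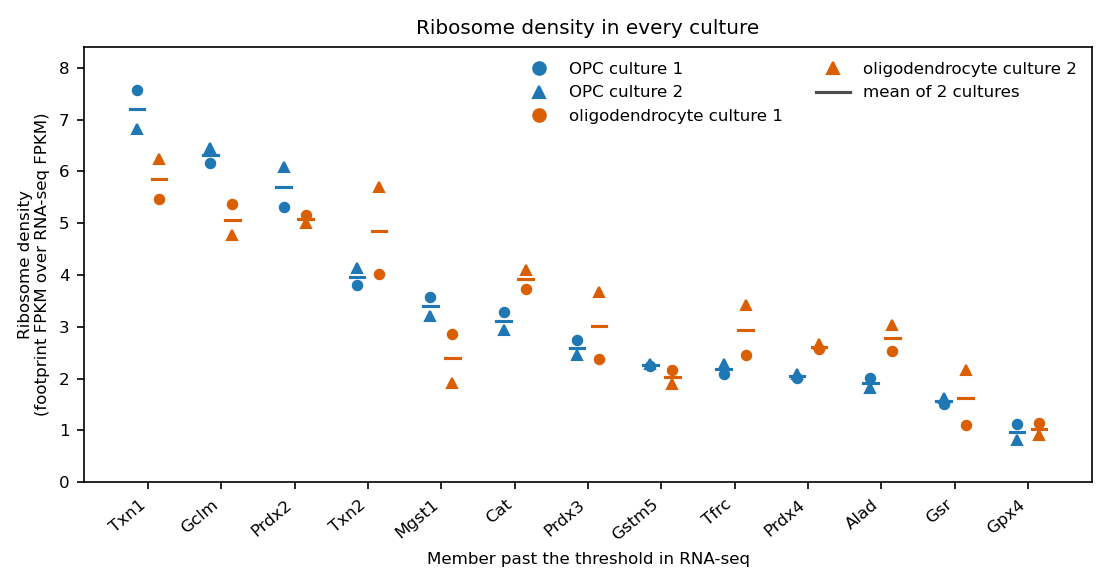
Ribosome density (footprint FPKM over RNA-seq FPKM, linear axis from 0) of the 13 members past the threshold in RNA-seq, with a point for each culture and a bar for the mean of 2 cultures. Densities run from about 1 for Gpx4 to above 5 for Txn1, and none of the members passed the test of a change between the cell types.

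The study concerns the decoding of Phe and Lys codons, so their use was counted in the members. The median share of TTT among Phe codons was 0.484 over the 35 members and 0.429 over all listed transcripts, and that of AAA among Lys codons was 0.294 and 0.368. Among the members called in RNA-seq, the TTT share ran from 0.412 (Gstm5) to 0.625 (Gpx4) in those that rose. In those that fell it ran from 0.250 (Txn1) to 0.727 (Mgst1). The AAA share ran from 0.182 (Alad) to 0.344 (Cat) in those that rose and from 0 (Mgst1) to 0.640 (Tfrc) in those that fell. The study's account concerns mRNA stability, which these levels do not measure, and a relation of the shares to the changes was not tested.

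Of the wider pathway lists, which hold 151 other genes for iron transport, heme, iron-sulfur clusters, glutathione, thioredoxin and related enzymes, and selenoprotein synthesis, 109 were found. In RNA-seq 11 of 89 tested were higher (12.4%) and 18 were lower (20.2%), with a median log2 fold change of -0.21, near the shares and the median of all transcripts. In footprints 7 of 94 were higher (7.45%, against 12.8% of all transcripts) and 10 were lower (10.6%, against 10.8%), and the lower share of rises was not tested. By list, the iron-sulfur genes had 1 higher and 5 lower of 16 in RNA-seq (6.25% and 31.2%). Selenoprotein synthesis had 0 and 3 of 7 (0 and 42.9%), glutathione 4 and 1 of 15 (26.7% and 6.67%) and heme 2 and 2 of 13 (15.4% each). Iron transport had 1 and 0 of 9 (11.1% and 0), and thioredoxin and related enzymes 3 and 7 of 29 (10.3% and 24.1%). Over all transcripts 13.0% were higher and 20.2% lower. The lists are small, their difference from these shares was not tested, and nothing is read from it.

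Of 88 pathway genes tested in both kinds, 4 were higher in both (4.55%, against 9.72% of 8056 transcripts) and 6 were lower in both (6.82%, against 8.95%). Among the 4, Flvcr2, a transporter of the FLVCR family, stood at 0.0897 and 0 FPKM in OPCs and at 2.11 and 1.84 FPKM in oligodendrocytes in RNA-seq, and its OPC footprints are listed at 0. It enters both tests through the oligodendrocyte libraries alone, so nothing is read from its calls. Lrp1, an endocytic receptor that takes up heme bound to hemopexin among other ligands, rose with a log2 fold change of 1.43 ± 0.26 in RNA, Ggt7, of the gamma-glutamyltransferase family, with 1.41 ± 0.34, and Sqstm1, the autophagy receptor that binds KEAP1, with 1.07 ± 0.15. Among the falls were Blvrb, biliverdin reductase B (-2.93 ± 0.65), the epoxide hydrolase Ephx1 (-2.15 ± 0.30) and the carbonyl reductase Cbr3 (-1.45 ± 0.25). Nubp1, an assembly factor for cytosolic iron-sulfur proteins (-1.22 ± 0.21), and Sephs1, a homolog of selenophosphate synthetase (-1.19 ± 0.25), were lower by similar amounts (log2 fold change in RNA-seq ± SE).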

How the data were processed

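Ribosome footprints (monosomes after MNase digestion) and alkali-fragmented total RNA of the same lysates were sequenced from 2 OPC and 2 oligodendrocyte cultures. The authors trimmed adapters with fastx_clipper (reads of at least 18 nucleotides), mapped to GRCm38 with HISAT2 2.1.0 and tabulated FPKM with StringTie 1.3.5 and ballgown on canonical coding transcripts of Gencode vM9, per transcript for RNA-seq and per CDS for footprints. A strand setting is not given in the sources used here. The deposited FPKM cover 10987 transcripts, and no column of per-sample values was left unused.

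FPKM were used as deposited. Differences between oligodendrocytes and OPCs were tested with limma 3.58.1 in R 4.3.3 (eBayes with trend, two-sided) on log2(FPKM + 0.1), for transcripts whose mean over the libraries fitted was 1 FPKM or more, with Benjamini-Hochberg adjustment over all of them at 0.05. A fold change is on this scale, which understates changes of low genes. The RD change was an interaction term (cell type by library kind) over 8 libraries, with the minimum in both kinds. The scripts were tested on simulated data. P-values measure the spread between these cultures.

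The members and gene lists were chosen with earlier results of these data known, and members past the threshold in any comparison are named with every value, as is the most abundant member in RNA-seq of a role with no call. Of other pathway genes, the largest 5 rises and 5 falls that pass in both kinds are named. Alternatives were pseudocounts of 1 and 0.01, no minimum and a minimum of 5 FPKM, median-ratio and TPM scaling, limma without trend, a replicate block and leaving out each culture. The study states that the oligodendrocytes correspond to the OPC replicates, and equal numbers in the labels were taken as pairs. Deviations from group means of same-numbered OPC and oligodendrocyte cultures correlated weakly (Pearson r = 0.108 in RNA-seq and 0.0860 in footprints, across transcripts), those of RNA-seq and footprints of a culture at 0.220 (OPCs) and 0.166 (oligodendrocytes).

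Depth was estimated from the steps between the 400 lowest values of a library, each step taken as 1 aligned base, and reads as 30 bases. The best-scoring depth was divided by 2, or by 3 for the RNA-seq of oligodendrocyte culture 1, where the coarser step kept at least 0.4 of the best score. Depth estimates cover counting error alone. Coordinates, CDS and sequences came from Gencode vM21 (GRCm38), where all 10987 transcript identifiers were found, and 30-base words were looked up in the GRCm38 chromosomes.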

Additional observations from a re-analysis of the deposited data

How the results depend on the processing

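Each RNA-seq and footprint call of a member kept its direction in each setting that tested it, up to 12. The groups of each call do not overlap, so of these settings only the scalings could have turned it. Without a minimum FPKM, 7 members passed in RNA-seq (13 as reported), and 1715 and 1163 of all transcripts in RNA-seq and footprints (2772 and 1969). Limma without trend called 6 members in RNA-seq and 5 in footprints (10), and 2075 transcripts in RNA-seq, 1036 in footprints and 14 in RD (1). RD called 3 transcripts with pseudocount 0.01, median-ratio or TPM scaling. TPM scaling moved the median of the members in footprints from -0.19 to 0.12, that of all transcripts being 0.14.

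Leaving out 1 culture gave 1 to 13 members and 364 to 2599 transcripts in RNA-seq, 0 to 14 and 0 to 3442 in footprints, and 0 to 3 and 0 to 883 in RD. The footprint median of the members then ran from -0.31 to 0.23. The high counts come without oligodendrocyte culture 1, the low ones without an OPC culture, and the cause was not tested.

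With the replicate block, cultures paired by number, 15 members passed in RNA-seq and 9 in footprints. Over all transcripts the block gave 3323 calls in RNA-seq (2772 as reported) and 1735 in footprints (1969), so nothing particular to the members is read from these counts. In RD the block was the culture, which joins its RNA-seq and footprint libraries, and 0 members and 0 of all transcripts passed. Apart from Trf, Hmox2 and Txnrd2, whose values are given above, the pairing changed no call of a member.

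Small log2 differences turned sign, none of them past the threshold. In RD, median-ratio scaling gave -0.0745 for Gpx4 and TPM scaling gave 0.0865 for Gsr. Leaving out 1 culture gave -0.0132 to 0.113 for Iscu in RNA-seq and, in RD, -0.14 to 0.31 for Gpx4, -0.51 to 0.47 for Gsr and -0.13 to 0.50 for Prdx3. Depth limits the low members, of which Trf, Nqo1, Gstt1, Gpx3, Srxn1 and Mgst3 have libraries listed at 0.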

Other observations

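Cultures of the same cell type were also set beside each other, over members with at least 1 FPKM in both cultures. In oligodendrocytes 21 of 29 members were higher in culture 1 than in culture 2 in RNA-seq (72.4%, against 63.6% of 7669 transcripts) and 22 of 31 in footprints (71.0%, against 65.4% of 7058). In OPCs 15 of 31 were higher in culture 1 in RNA-seq (48.4%, against 50.9% of 7866) and 15 of 32 in footprints (46.9%, against 46.5% of 7765). Differences of more than 0.5 on the log2 scale with the higher value in oligodendrocyte culture 1 were found for 7 members in RNA-seq (24.1%, against 22.0% of transcripts) and 7 in footprints (22.6%, against 30.4%), and with the higher value in culture 2 for 0 (against 6.55%) and 2 (6.45%, against 5.45%). In OPCs 2 members in RNA-seq (6.45%, against 12.7%) and 0 in footprints (against 10.7%) were higher by this much in culture 1, and 4 (12.9%, against 8.82%) and 4 (12.5%, against 9.17%) in culture 2. The cultures differ in depth, there is no test with 1 library on each side, and nothing particular to these genes is read from the counts.

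Values of the glutathione synthesis genes are given side by side for the oligodendrocyte cultures. Footprints on Gss stood at 21.9 FPKM in oligodendrocyte culture 1 and 3.76 FPKM in culture 2, those on Gclc at 19.7 and 7.14 FPKM, and those on Gclm at 70.9 and 40.9 FPKM. For Gsr, the recycling enzyme, the order was the other way in footprints (19.7 and 25.4 FPKM) but not in RNA-seq (17.99 and 11.7 FPKM). These genes were chosen after their values were seen.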
